A study of Arabidopsis thaliana with 4 samples.

Results

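Of the 6356 LEC1-GFP peaks in Arabidopsis bent cotyledon-stage seeds, 635 lay deep inside protein-coding genes (9.99%, 95% exact binomial interval 9.26 to 10.8%). Deep means here that the midpoint of the peak lay inside a protein-coding gene and more than 300 bp from both ends of every such gene it lay in, so the position relative to genes chose these peaks and neither score nor width did. LEAFY COTYLEDON1 (LEC1) belongs to the NF-YB proteins, which join the trimeric NF-Y factors that bind DNA, and embryos need it to mature. Plants of the lec1-1 mutant carried the LEC1:LEC1-GFP:LEC1 transgene, and this genotype was shared by the ChIP libraries (anti-GFP antibody, 2 biological replicates) and the input libraries (total fragmented chromatin, 2 biological replicates). The seeds came from plants grown under continuous light, and their age is given by stage only. The data are 1 peak list for all libraries, so no value below has a replicate error, the read depth is unknown, and ChIP was not compared with input here. Values for peaks and genes are descriptions of that list, no test was made on them, and intervals are 95% intervals that cover counting error only and treat peaks and genes as independent.

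Transcription factors in Arabidopsis mostly occupy the open chromatin around transcription start sites. Sites inside a gene body are rarer and can be enhancers in introns or internal start sites. The NF-Y complex is known for binding CCAAT boxes, which are typical of promoters. The gene table used here holds neither strand nor exons, so a deep peak was not assigned to an intron, an exon or a side of the gene.

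Deep gene sequence was the sparsest of the gene-linked zones in peaks. It made up 48.7 Mb and held 13.0 peaks per Mb, whereas the first 300 bp inside gene ends held 96.7 peaks per Mb and the flanks of 1 kb outside genes held 129 per Mb, 7.41 and 9.90 times as many. The other peaks comprised 1527 just inside gene ends, 3137 outside genes within 1 kb and 1057 farther away. Inside genes the density fell steadily over the limit of 300 bp. It was 160 per Mb (149 to 171) in the first 100 bp, 42.8 (37.3 to 48.8) at 201 to 300 bp, and 23.2 (19.1 to 27.9) at 301 to 400 bp. From 501 to 1500 bp it lay between 11.2 and 13.3 per Mb, and beyond 2000 bp it was 4.55 (2.91 to 6.76), from 24 peaks.

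**Figure D1:**
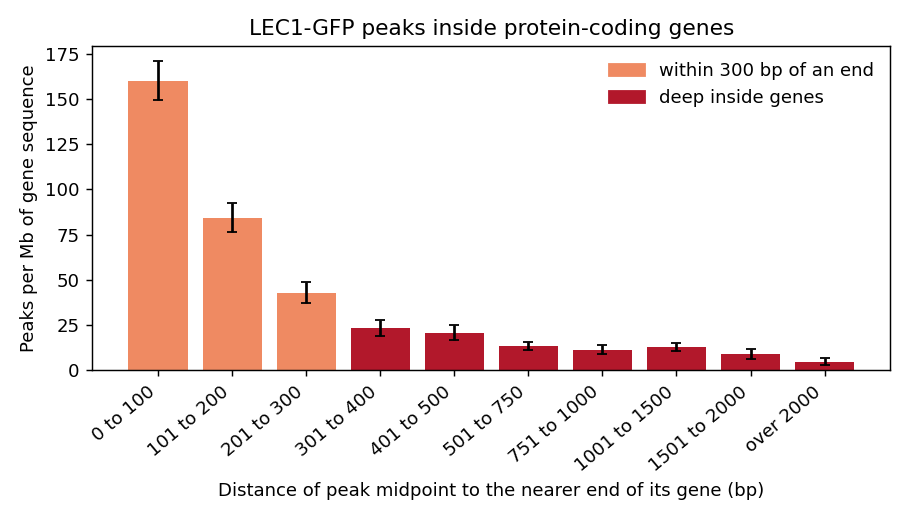
Peaks per Mb of gene sequence (vertical axis) by the distance of the peak midpoint to the nearer gene end in bp (horizontal axis). Bars are counts divided by the sequence at that distance, error bars are 95% Poisson intervals, and the bars fall from 160 per Mb at the gene end to 4.55 per Mb beyond 2000 bp.

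The median deep peak lay 693 bp from the nearer gene end (quartiles 440.5 and 1077 bp), and 195 of 635 (30.7%) lay more than 1000 bp from both ends. The farthest midpoint was 3404 bp from an end, in AT5G12440. The deep peak of GA1, the gene for the first committed enzyme of gibberellin synthesis, came close to it with 3397 bp. Peaks on either side of the limit were alike in value: 114 deep peaks at 301 to 400 bp had a median score of 2.42 and 219 peaks at 201 to 300 bp had 2.44, both with a median width of 249 bp. The nearest deep peaks, 301 to 303 bp inside, lay in the ribosomal protein gene RPL23AA, in ATL8 and in ABI2, with scores of 2.06, 2.40 and 2.29. The peaks just outside the limit, at 299 and 300 bp, had scores of 2.90, 2.09 and 2.03.

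Most deep peaks kept clear of gene ends over their whole extent. Both edges lay more than 300 bp inside in 502 of 635 (79.1%), and 1 peak reached outside its gene. Another protein-coding gene had an end within 300 bp of the midpoint in 29 cases (4.57%), and 3 midpoints lay in 2 overlapping genes. A gene that is not protein-coding covered 22 midpoints (3.46%, 2.18 to 5.20%), 21 of them long noncoding RNA genes. The share was 2.42% for peaks just inside gene ends and 5.39% for peaks in the flanks.

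Scores of deep peaks were close to those of the list as a whole but held few of the highest. The score is a value that the authors gave each peak; its scale is unknown, and it served to rank peaks within the list. The median was 2.43 (2.37 to 2.49) for deep peaks, 2.39 (2.37 to 2.42) just inside gene ends, 2.47 (2.45 to 2.49) in the flanks and 2.48 (2.45 to 2.53) farther away. In 46.9% of pairs of a deep peak and a flank peak the deep peak had the higher score, and in 51.6% of pairs with a peak just inside a gene end. Among the 10.0% of all peaks with the highest scores were 39 deep peaks (6.14% of them, 4.40 to 8.30%), against 111 peaks just inside ends (7.27%), 355 in the flanks (11.3%) and 131 farther away (12.4%). The highest deep score was 3.97, whereas the flanks reached 4.51.

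Deep peaks included more broad peaks than the edges of genes did. All classes had a median width of 249 bp except the peaks just inside gene ends, with 199 bp. Of all peaks 5.51% were 500 bp or wider. This share was 6.93% for deep peaks (44 of 635, 5.08 to 9.19%), 2.95% just inside gene ends (45 of 1527, 2.16 to 3.92%), 6.53% in the flanks and 5.30% farther away. Wide deep peaks had lower scores than other peaks of their width. At 500 bp or more their median score was 3.04 (2.91 to 3.17), below 3.26 (3.07 to 3.36) just inside ends, 3.25 (3.17 to 3.33) in the flanks and 3.53 (3.40 to 3.62) farther away. The interval of the deep peaks lay below that of the far peaks, ended just below that of the flanks and overlapped that of the peaks just inside ends. Under 300 bp the 4 classes differed by at most a few hundredths, with deep medians of 2.26 at 100 to 199 bp and 2.58 at 200 to 299 bp.

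**Figure D2:**
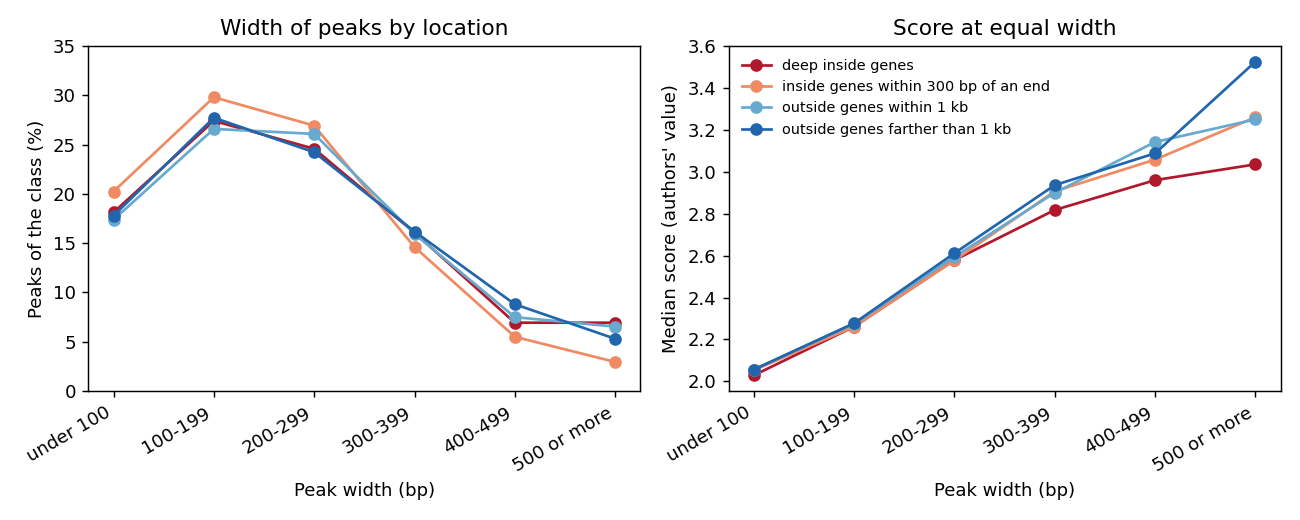
Left, the share of each class of peaks in percent by peak width in bp; right, the median score of each class by peak width. Points are the 4 location classes, and the right panel shows the deep class lowest from 300 bp upward, with 3.04 against 3.25 to 3.53 at 500 bp or more.

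The deep peaks fell in 598 genes, 2.33% of the 25690 protein-coding genes that are long enough to hold one (603 bp or longer; 2.15 to 2.52%). There was 1 deep peak in 559 of these genes, 38 had 2 and 1 had 3. Genes with a deep peak had a median length of 2682 bp (2560 to 2801; quartiles 1947 and 3711 bp), against 2176.5 bp for all genes long enough. Longer genes offer more deep sequence, and a gene drawn in proportion to its deep sequence would have a median length of 3185 bp. Set against that sequence, deep peaks were sparser in long genes. They numbered 23.1 per Mb (18.0 to 29.2) in genes of 603 to 1499 bp, 16.6 at 1500 to 2499 bp, 13.0 at 2500 to 3999 bp, 11.2 at 4000 to 5999 bp and 4.61 (3.11 to 6.58) in genes of 6000 bp or more. The density in genes of 4 kb or longer was 0.558 times that in shorter genes (0.459 to 0.675). Sequence near the limit takes a larger part of the interior of short genes, and peak density was higher there, so the ratio was also taken within classes of distance, a split chosen after these values were seen. From 301 to 500 bp from the nearer end, long genes had 22.2 peaks per Mb and shorter genes 21.7, a ratio of 1.02 (0.666 to 1.52) from 29 and 180 peaks. The ratio was 0.713 (0.469 to 1.05) from 501 to 1000 bp, and 0.653 (0.466 to 0.907) from 1001 to 2000 bp, where long genes had 8.68 peaks per Mb and shorter genes 13.3. Genes shorter than 4 kb have no sequence farther in than 2000 bp, so the low density there belongs to long genes alone. The interval of the ratio lies below 1 from 1001 to 2000 bp and spans 1 in both classes nearer to the end. The class from 1001 to 2000 bp does not fully even out distance. Over all genes density was 12.5 per Mb at 1001 to 1500 bp and 8.72 at 1501 to 2000 bp, and a finer split by gene length was not made.

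The shortest genes with a deep peak were AT3G19690 (637 bp), AT2G37750 (723 bp) and AT4G21930 (827 bp), with scores of 2.40, 2.27 and 2.50. The longest were CHR4, a chromatin remodelling gene of 10631 bp, SEX1 (10099 bp) and RXW8 (8896 bp). The peaks of CHR4 and SEX1 lay close to the limit, 332 and 328 bp from an end, while that of RXW8 lay 2562 bp inside, with a score of 3.31. Of the genes with a deep peak 45.0% had at least 2 transcripts in the gene table, and of genes without one 48.4% when set to the same lengths.

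Genes with a deep peak also had peaks at their ends more often than other genes. A second peak, with its midpoint from 1 kb outside to 300 bp inside either end, was found at 215 of 598 (36.0%, 32.1 to 39.9%), against 23.4% of genes without a deep peak at the same lengths. In both groups such a peak can lie in or beside a neighbouring gene. A peak 753 bp outside MYB118, for example, lay inside another gene. In genes of 603 to 1499 bp the shares were 41.4% (29 of 70) and 16.4%. In genes of 6000 bp or more they were 21.4% (6 of 28) and 24.0%. The remaining 383 genes (64.0%) had no peak at an end, and 22 of them had more than 1 deep peak. Deep peaks in genes with and without an end peak had median scores of 2.38 (2.35 to 2.46) and 2.46 (2.39 to 2.53). Another peak of any kind lay within 2 kb of 36.5% of deep peaks, compared with 23.8% of peaks just inside ends, 28.8% in the flanks and 45.4% farther away.

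**Figure D3:**
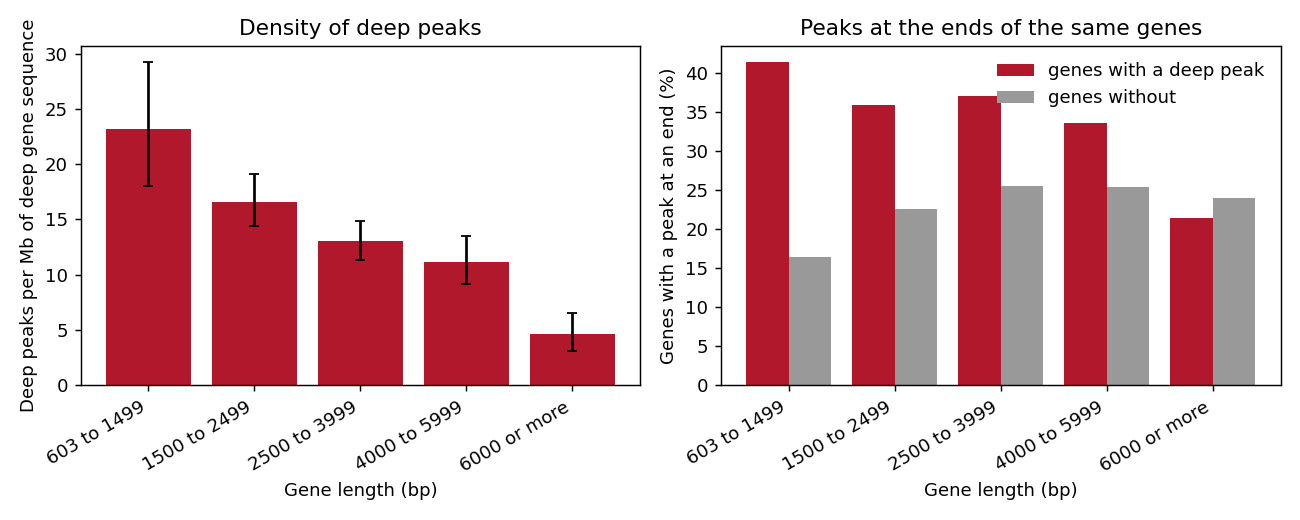
Left, deep peaks per Mb of deep gene sequence by gene length in bp, with 95% Poisson intervals, falling from 23.1 to 4.61. Right, the share of genes in percent that also have a peak at an end, for genes with a deep peak and genes without, with 41.4% and 16.4% in the shortest class and 21.4% and 24.0% in the longest.

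The highest-scoring deep peaks did not come from one kind of gene. The 15 with the highest scores ran from 3.97 to 3.49 and ranked from 31 to 264 among all peaks. The first lay at AT5G66650 (chromosome 5, 26604751 to 26605149), 1947 bp from the nearer end of a gene of 4010 bp, and the same gene had a second deep peak with a score of 2.85. It was followed by AT2G22790 (score 3.87; chromosome 2, 9696551 to 9696949) and AT4G36170 (3.76; chromosome 4, 17114851 to 17115499). F8H, a relative of the xylan synthesis gene FRA8, had a peak of 749 bp with a score of 3.72 (chromosome 5, 7678401 to 7679149). ARL2, a gene of root and shoot gravity responses, had a score of 3.68 (chromosome 1, 22085601 to 22085999). AT1G72200 came next with a score of 3.64.

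SAP, a regulator of flower development, had deep peaks with scores of 3.62 and 2.74, 1025 bp apart, and a weak peak at an end (2.32). PRA8, of the prenylated Rab acceptor family, had a score of 3.59. AT3G22410, AT3G11420, AT5G63130 and AT5G01880 had scores of 3.58, 3.57, 3.55 and 3.53. SEX1, the glucan, water dikinase that starts starch breakdown, had a score of 3.50 (chromosome 1, 3590401 to 3590799) and no other peak. The Kelch-repeat F-box gene KFB20 (AT1G80440) and the endo-beta-mannanase gene MAN7 each had a score of 3.49, from peaks of 849 and 699 bp.

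The widest deep peak, 949 bp, lay at CSLA02 and scored 3.30 (chromosome 5, 7557501 to 7558449). AT3G22410 and DTA2 had deep peaks of 899 bp. Next to the 849 bp of KFB20 came 3 genes with deep peaks of 799 bp, among them HAI1. Width did not follow score among these: DTA2 had a score of 3.08 and HAI1 2.70.

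Regulators of seed development held deep peaks in 6 of 26 genes (23.1%, 8.97 to 43.6%), against 2.33% of all genes long enough and 2.73% when all genes are set to the lengths of the list. Peaks at an end were found at 17 of the 26 (65.4%), against 23.8% of all genes at these lengths. This list, like the others below, was written with earlier results of these data known. It names selected genes, as they do, so its share is not that of the whole kind, and genes left out were not counted. The median of the deep scores in the list was 2.52, against 2.43 for all deep peaks. ABI3, a B3-domain activator of maturation, had the highest of them, 3.34 (chromosome 3, 9000651 to 9001049), 335 bp from the gene end opposite to the one that had an outside peak of 3.08. MYB118, a MYB regulator of maturation in the endosperm, had a deep peak of 3.18 (chromosome 3, 10289401 to 10289749) beside an outside peak of 3.24. LEC2, another B3 regulator, had a deep peak of 2.54 (chromosome 1, 9897601 to 9897849), below the 4.17 of the peak outside its other end. WRI1, the activator of fatty acid synthesis genes, had a deep peak of 2.51, 1670 bp from an end, and a peak of 2.96 at an end.

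LEC1 itself had a deep peak of 99 bp with a score of 2.06 (chromosome 1, 7728951 to 7729049), 649 bp from the nearer end, and a peak of 2.17 just outside that end. The plants carry LEC1 sequence in the transgene as well as at the locus, and the part of the added copies in these 2 peaks was not tested. The bZIP gene EEL had a weak deep peak of 1.99 and a second peak of 2.69 inside, 547 bp from its nearer end, which does not count as deep because it lay within 300 bp of the end of the overlapping gene AT2G41060. Each of these regulators except EEL also had a peak at an end.

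**Figure D4:**
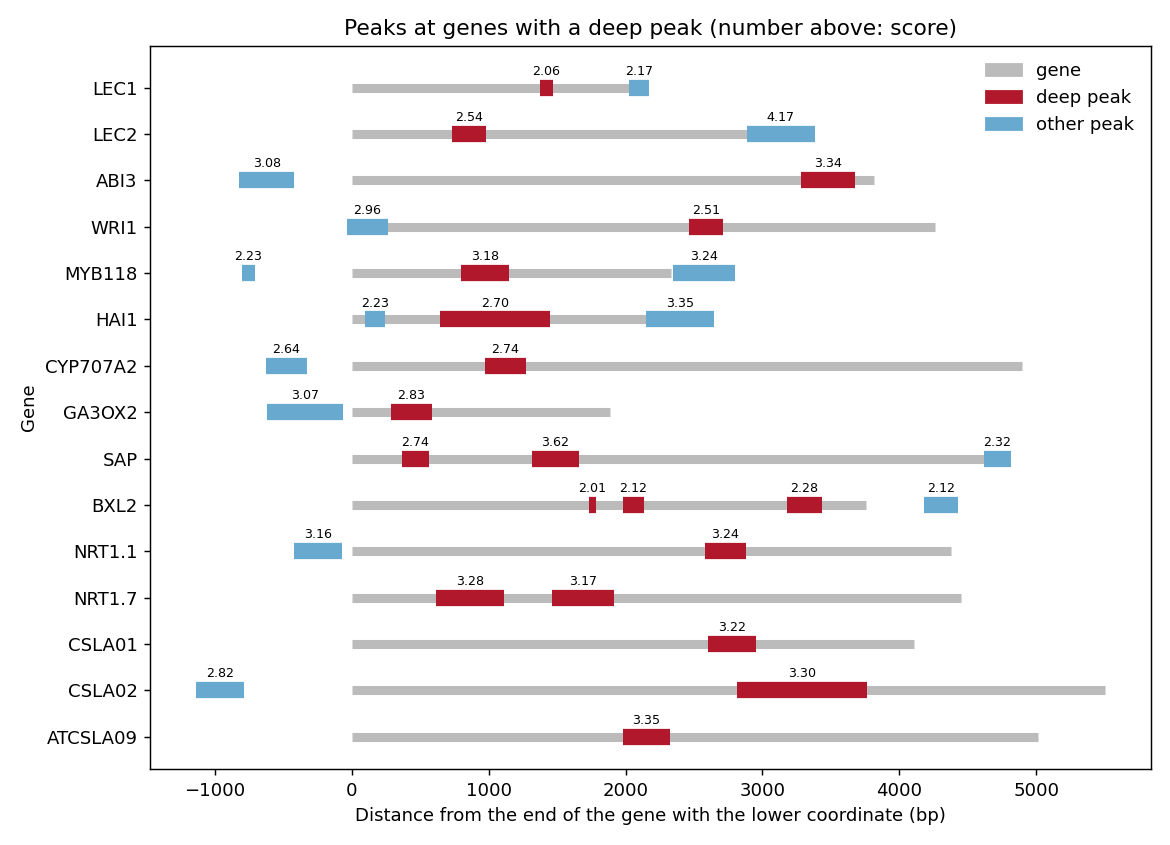
Peaks at 15 genes with a deep peak, drawn along each gene by distance in bp from the end with the lower coordinate; strand is not shown. Grey bars are genes, red boxes deep peaks and blue boxes other peaks with their scores above, such as 2.54 inside and 4.17 outside LEC2.

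Abscisic acid genes held deep peaks in 6 of 34 (17.6%, 6.76 to 34.5%; all genes at these lengths 2.53%). Peaks at an end were found at 19 of the 34 (55.9%; 23.6% at these lengths). NCED3, which makes the precursor of the hormone, had a score of 2.81 (chromosome 3, 4833501 to 4833849), 340 bp from an end, and no peak at its ends. The breakdown enzyme genes CYP707A2 and CYP707A1 had deep scores of 2.74 and 2.27. HAI1, a protein phosphatase 2C that restrains abscisic acid signalling, had a deep peak of 799 bp with a score of 2.70, between peaks of 2.23 and 3.35 at its ends. ABI2, a phosphatase of the same group, and the bZIP gene ABF4 had deep scores of 2.29 and 1.99.

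Gibberellin and brassinosteroid genes had deep peaks in 4 of 31 (12.9%, 3.63 to 29.8%; 2.60% at these lengths) and end peaks at 14 (45.2%; 23.7%). GA3OX2, a late gibberellin synthesis enzyme, had a deep score of 2.83 beside an outside peak of 3.07, and GA1 had a score of 2.66 with a peak of 549 bp. BAS1, which inactivates brassinosteroids, and the receptor gene GID1A had scores of 2.37 and 1.97. GA2OX4 (1.97), CYP714A2 (2.53), ROT3 (2.57) and BEH3 (2.01), also of these pathways, had deep peaks but stand outside the list. Unlisted genes of these pathways without a deep peak were not counted. Genes of fatty acid and oil synthesis had deep peaks in 3 of 25 (12%, 2.55 to 31.2%; 3.20% at these lengths) and end peaks at 14 (56.0%; 25.5%). Those with a deep peak were the desaturase genes SSI2 (2.64) and FAD3 (2.26) and ROD1 (2.28), which shapes the fatty acid make-up of oil.

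The lists for light signalling, sugar metabolism and receptor-like kinases had 2 deep genes each, of 31, 32 and 33. End peaks were found at 17 (54.8%; 24.4% at these lengths), 13 (40.6%; 25.3%) and 13 (39.4%; 25.6%) of their genes. The genes with a deep peak were GLK2, a chloroplast regulator (2.52), the blue light receptor gene PHOT1 (1.99), the sucrose synthase gene SUS1 (2.57), the sugar exporter gene SWEET15 (listed as SAG29, 2.40), and the kinase genes ER (2.01) and SERK1 (1.99). The exact intervals of these lists and of the oil list reached down to 0.743 to 2.55%, so they include the shares of 3.12 to 3.40% that all genes had at these lengths.

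No deep peak was found in 6 of the 13 lists. The listed photosystem and antenna genes had deep peaks in 0 of 42. Of the 42, 36 (85.7%) had a peak at an end, against 19.1% of all genes at these lengths. The listed genes are short, with a median length of 1385.5 bp. All genes of such lengths had a deep peak in 1.51%, so 0 of 42 is near that background. PSB27, a photosystem gene outside the list, had a deep peak with a score of 2.94. Storage and oil body protein genes had none in 17, with a peak at an end of 13 (76.5%; 19.3% at these lengths). Clock genes had none in 20, with end peaks at 14 (70.0%; 24.9%), and auxin response and HD-ZIP III factor genes none in 20, with end peaks at 12 (60.0%; 25.8%). The listed Polycomb, remodelling and DNA methylation genes, with a median length of 5092 bp, had none in 36 and end peaks at 10 (27.8%; 25.04%). Outside that list, the remodelling gene CHR4 and the DNA methylation gene RDM1 had deep scores of 2.65 and 2.53. Splicing factor genes had none in 26 and end peaks at 5 (19.2%; 24.5%), so the end peaks of these last lists were near those of all genes. The upper limits of the exact intervals ran from 8.41% for photosystem genes to 19.5% for storage genes, so a deep share like the 2.33% of all genes cannot be told from these zeros.

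Classes read from words in gene names and synonyms gave larger numbers, and were chosen after the values had been seen. They count name matches, so they miss members of a kind and can take in other genes. ABI3 and LEC2 were not matched as transcription factors, ER not as a protein kinase and SWEET15 not as a transporter, though each had a deep peak. The shares below are therefore not those of the whole kind. Genes matched as transcription factors had deep peaks in 29 of 652 (4.45%, 3.00 to 6.33%; all genes at these lengths 2.21%). Examples were MYB11 (3.24) and MYB12 (2.85), both activators of flavonol synthesis, the homeobox gene KNAT6 with 2 deep peaks (2.90 and 2.14), the boundary gene CUC3 (2.66) and the flowering repressor gene FLC (2.25). Genes matched as transporters had 20 of 420 (4.76%, 2.93 to 7.26%; 2.75% at these lengths) and as cytochrome P450 enzymes 14 of 231 (6.06%, 3.35 to 9.96%; 2.40%). Those matched as protein kinases had 7 of 557 (1.26%, 0.507 to 2.57%; 2.87%). Ribosomal protein genes had 1 of 66 (1.52%; 1.74% at these lengths) and peroxidase genes 1 of 35 (2.86%; 2.37%). Genes matched as F-box proteins had 4 of 31 (12.9%, 3.63 to 29.8%; 2.40%). Those matched as glycosyltransferases and cell wall synthases had 5 of 93 (5.38%, 1.77 to 12.1%; 3.00%).

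Some small families, also chosen after their values were seen, recurred among the deep peaks. Mannan synthase genes of the CSLA family had deep peaks in 3 of 9 (33.3%, 7.49 to 70.1%; all genes at these lengths 3.46%). They were ATCSLA09 (3.35; chromosome 5, 987601 to 987949), CSLA02 (3.30) and CSLA01 (3.22; chromosome 4, 9347751 to 9348099), and only CSLA02 of these 3 had another peak, of 2.82, near an end. Nitrate transporter genes of the NRT1 and NRT2 groups had deep peaks in 4 of 14 (28.6%, 8.39 to 58.1%; 2.89% at these lengths). NRT1.7 had a pair, with scores of 3.28 and 3.17 and midpoints 825 bp apart, NRT1:2 had a pair of 2.69 and 2.65, 450 bp apart, and NRT1.1 had 3.24 inside and 3.16 outside. NRT1.5 had a single narrow peak of 2.28. Fatty acid hydroxylase genes of the CYP86A family, some of which act in cutin synthesis, had deep peaks in 4 of 5 (80.0%, 28.4 to 99.5%; 2.35% at these lengths). They were CYP86A2 (3.25), CYP86A4 (3.12), CYP86A8 (2.42 and 2.26) and CYP86A7 (2.11). Genes of the IDD family had deep peaks in 3 of 9 (33.3%, 7.49 to 70.1%; 3.13% at these lengths). Class I KNOX genes had them in 2 of 4 (50.0%, 6.76 to 93.2%; 3.31%). Since the families were picked for these counts, the intervals support nothing about them. Family members resemble each other in sequence, and the handling of reads that map to several places is unknown, so which member a peak belongs to is uncertain.

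Deep peaks of the same gene lay at varied spacing, and whether close pairs such as that of DMR6, 100 bp apart, are parts of 1 stretch was not tested. In the 39 genes with at least 2, the closest pair of midpoints in a gene was 725 bp apart in the median and from 100 to 3150 bp over the genes, and 17 of the 39 also had a peak at an end. BXL2, a beta-xylosidase gene, was the gene with 3, all weak: 2.01, 2.12 and 2.28, from 446 to 1757 bp from the nearer end. Chromosome 1 held 202 deep peaks, or 15.5 per Mb of deep sequence, and chromosome 3 held 98, or 10.3 per Mb, with the other 3 chromosomes between 12.2 and 13.8.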

How the data were processed

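Chromatin from seeds was fixed with formaldehyde, sonicated to 100 to 500 bp and, after library preparation, amplified in 15 cycles, per the labels' protocols. SAMtools 0.1.19, Bowtie 0.12.7 and the build TAIR10 stand in the submitters' processing notes. How peaks were called, at which threshold and from pooled or single replicates, is unknown. The deposited values are a position and a score for each of 6356 peaks, and the score was made by the authors. Starts lay on a grid of 50 bp and were raised by 1 for printing. Widths are the difference of the deposited start and end.

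Gene extents, symbols and synonyms were read from RefSeq's table for assembly TAIR10.1, so gene positions are not printed, and gene sequence was not used here. The midpoint of a peak was the whole-number mean of its start and end. Median intervals come from order statistics, shares from exact binomial (Clopper-Pearson) and densities from Poisson intervals, computed with Python 3.11.15, numpy 2.4.6, pandas 2.3.3 and scipy 1.17.1. Shares at like length weight 5 classes of gene length. The assignment was tested on simulated peaks. All 373 entries of the 13 lists (some genes stand in 2) were found. Entries whose symbol had matched another gene or none were replaced by locus after first counts had been seen, which removed the deep peak first counted among the splicing factors. Named genes were those of the 15 highest and 5 widest deep peaks, genes with 3 or more, the 3 longest and shortest, and the 3 highest of each list; others were chosen after their values were seen. The members and lists were chosen with earlier results of these data known.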

Additional observations from a re-analysis of the deposited data

How the results depend on the processing

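The alternatives gave 42 values for 6 results, of which 31 stayed within the interval of the value reported, 1 of these with the opposite sign. The share of deep peaks was 13.4% with a limit of 200 bp, 6.70% with 500 bp and 7.90% with the whole peak over 300 bp inside, since these change the sequence that counts. The difference in median score between deep and other peaks, -0.0254 as reported (-0.0805 to 0.0363), was 0.00357 at 500 bp, the change of sign, and -0.0886 with the whole peak inside, a setting that by construction keeps narrow peaks, whose width difference was -50 bp against 0. Median length of genes with a deep peak was 2924.5 bp at 500 bp and 2824 bp with the whole peak inside. The share of these genes with a peak at an end was 28.6% with 500 bp outside and 20.3% in the 3178 highest-scoring peaks; genes of like length without a deep peak then had 18.9% and 12.4%. The density ratio of long to short genes ran from 0.518 to 0.667 under the other settings, but within classes of distance from the end, chosen after seeing the data, it was 1.02 at 301 to 500 bp, 0.713 at 501 to 1000 bp, and 0.653 at 1001 to 2000 bp. No paired analysis was possible because the list holds no values per sample. Depth is unknown, so absence of a peak is no measure of binding.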
